A study of Mus musculus with 22 samples.

Results

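The regions described here are 1475 windows of 1 kb (tiles) on mouse autosomes whose methylation in wild-type animals lay between 35% and 60% in all 3 tissues examined. They were chosen from 67515 tiles that held at least 20 CpGs covered by 6 or more reads in all 12 whole genome bisulphite libraries, and they make up 2.18% of them. A tile was kept where the mean of the 2 wild-type libraries fell inside that band in E10.5 whole embryo, in E14.5 liver and in E18.5 liver. The wild-type levels therefore chose the tiles and are given as a description, and the wild-type side of every comparison between genotypes was used in the choice. Methylation levels of the mutant libraries and the RNA were not used, and the mutant libraries entered only through the coverage rule.

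Rlf is a zinc finger protein, and MommeD28 is a null allele of its gene produced by ENU mutagenesis. All animals were of the inbred FVB strain (the FVB/NJ line Line3) and all of them, controls included, were homozygous for a multi-copy GFP transgene array with an alpha-globin promoter of human origin and its HS-40 enhancer. Wild-type and MommeD28 homozygous animals were compared with 2 bisulphite libraries per genotype in each tissue. The E10.5 embryos were all male, the E18.5 livers were all female, and in each genotype the E14.5 livers were 1 male (replicate 1) and 1 female (replicate 2), the livers of this stage coming from littermates. Poly(A) RNA was sequenced from E14.5 livers of 3 animals per genotype, replicates 1 and 2 male and replicate 3 female. Whole embryos and whole livers hold many cell types, so a change in the share of a cell type and a change within cells cannot be told apart. H3K4me1 immunoprecipitation libraries of the same series were not analysed here.

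Most of the mammalian genome is either heavily methylated, or unmethylated as at CpG islands with active promoters, and a stable level in between is uncommon. The best known regions of this kind are the germline differentially methylated regions (DMRs) of imprinted genes, where the copy from 1 parent is methylated and the other is not, so that every cell carries both states. These marks are set in the egg or the sperm and are kept through early development by Zfp57 and Trim28 (Kap1), Zfp57 binding the methylated hexamer TGCCGC. An intermediate mean can also arise where methylated and unmethylated CpGs lie side by side, as at the edge of a CpG island, or where cells differ from each other.

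The sequence of the members at imprinted genes is shown first, because they held the binding motif of Zfp57 more often than the other members. The stretches below are 250 bases each of the mouse reference mm9 (the C57BL/6J sequence, which can differ from FVB), read 5′ to 3′ on the plus strand. Each is the stretch of its tile with the most TGCCGC or GCGGCA (the same motif on the other strand) that holds no annotated exon base, and the capitals mark those motifs. The Snrpn stretch lies in an intron at chr7:67149243-67149492, the Peg3 stretch in an intron at chr7:6682637-6682886, the Kcnq1 stretch in an intron at chr7:150481480-150481729, and the H19 stretch upstream of the gene and outside any annotated gene at chr7:149766001-149766250.
Snrpn: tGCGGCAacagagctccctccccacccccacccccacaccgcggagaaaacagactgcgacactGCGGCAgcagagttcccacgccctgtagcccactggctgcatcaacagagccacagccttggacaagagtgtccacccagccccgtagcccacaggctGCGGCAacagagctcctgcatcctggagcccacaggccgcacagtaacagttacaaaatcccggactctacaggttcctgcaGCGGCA
Peg3: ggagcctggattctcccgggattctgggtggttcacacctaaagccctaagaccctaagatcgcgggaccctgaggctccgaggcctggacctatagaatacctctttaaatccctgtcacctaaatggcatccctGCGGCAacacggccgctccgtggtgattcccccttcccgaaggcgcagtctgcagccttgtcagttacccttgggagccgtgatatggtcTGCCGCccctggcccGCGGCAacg
Kcnq1: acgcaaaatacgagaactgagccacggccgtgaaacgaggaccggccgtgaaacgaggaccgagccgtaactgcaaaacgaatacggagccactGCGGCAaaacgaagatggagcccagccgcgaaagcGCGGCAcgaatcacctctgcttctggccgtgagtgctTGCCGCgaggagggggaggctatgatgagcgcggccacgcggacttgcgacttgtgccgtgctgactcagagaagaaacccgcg
H19: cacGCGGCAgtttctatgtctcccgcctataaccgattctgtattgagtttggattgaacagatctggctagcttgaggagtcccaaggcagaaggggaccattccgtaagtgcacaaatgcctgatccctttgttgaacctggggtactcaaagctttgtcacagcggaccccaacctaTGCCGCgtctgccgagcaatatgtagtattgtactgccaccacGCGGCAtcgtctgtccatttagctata
The whole tiles held 8 such motifs at Snrpn, 6 at Peg3, 3 at Kcnq1 and 3 at H19. Of the 57 members at genes with a germline DMR, 34 (59.6%) held the motif at least once, against 381 of the 1418 other members (26.9%) and 32.8% of all 67515 tiles. Scaled to CpG number, the motif came to 4.07 per 100 CpGs at the imprinted members, 1.16 at the other members and 1.18 over all tiles. A match of these letters is a description of the sequence and not a measured binding site.

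A second set of stretches comes from members whose methylation rose in the mutants, to show the sequence at those tiles. They are again 250 bases of the plus strand of mm9, here chosen for the most CpGs free of annotated exons, with each CpG of the reference in capitals, whether or not it was covered. The first lies at chr12:104554031-104554280, outside any annotated gene and 19294 bases from the nearest protein-coding start site, that of Asb2. The Fscn1 stretch lies at chr5:143725707-143725956 in an intron, and the Apoc1 stretch at chr7:20277385-20277634, in a tile that contains an Apoc1 start site.
Near Asb2: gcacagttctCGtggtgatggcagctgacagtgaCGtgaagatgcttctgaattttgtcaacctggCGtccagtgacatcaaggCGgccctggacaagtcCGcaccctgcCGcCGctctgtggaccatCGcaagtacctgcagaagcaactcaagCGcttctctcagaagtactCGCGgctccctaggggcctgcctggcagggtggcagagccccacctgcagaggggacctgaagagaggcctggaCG
Fscn1: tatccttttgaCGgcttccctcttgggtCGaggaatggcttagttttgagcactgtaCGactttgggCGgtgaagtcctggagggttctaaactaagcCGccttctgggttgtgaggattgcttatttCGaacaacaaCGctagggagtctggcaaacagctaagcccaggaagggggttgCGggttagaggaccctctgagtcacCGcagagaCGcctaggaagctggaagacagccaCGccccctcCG
Apoc1: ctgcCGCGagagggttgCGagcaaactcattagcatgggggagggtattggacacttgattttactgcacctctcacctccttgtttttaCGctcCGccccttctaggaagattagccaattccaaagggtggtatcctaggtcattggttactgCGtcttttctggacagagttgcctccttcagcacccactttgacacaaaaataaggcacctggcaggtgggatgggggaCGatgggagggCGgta

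The libraries held 314390416 to 697227249 reads over autosomal CpGs, with the E14.5 livers at 32.2 to 36.1 reads per covered CpG and the other libraries at 17.2 to 19.4. Unconverted lambda cytosines were 0.0412% to 0.0775%. Autosomal methylation was 70.6% and 72.0% in wild-type and 73.2% and 73.9% in mutant E10.5 embryos, 56.4% and 58.5% against 60.3% and 59.2% in E14.5 liver, and 61.4% and 61.7% against 65.5% and 61.4% in E18.5 liver, so that mutant replicate 1 of E18.5 liver stood apart from the other 3 libraries of its stage. The number of calls at E18.5 is therefore given with and without it.

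Median methylation of the members was 49.4% and 50.9% in the wild-type E10.5 libraries, 43.7% and 44.7% in wild-type E14.5 liver, and 48.5% and 47.9% in wild-type E18.5 liver. These values are a consequence of the choice. In the mutants, whose levels had no part in it, the medians were 55.3% and 54.8% at E10.5, 48.5% and 46.5% at E14.5, and 52.7% and 50.1% at E18.5. Every mutant median lay above both wild-type medians of its tissue. The mutant mean stayed within 35% to 60% in all 3 tissues at 850 of the 1475 members (57.6%), and at 45 of the 57 members at germline DMR genes (78.9%).

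**Figure D1:**
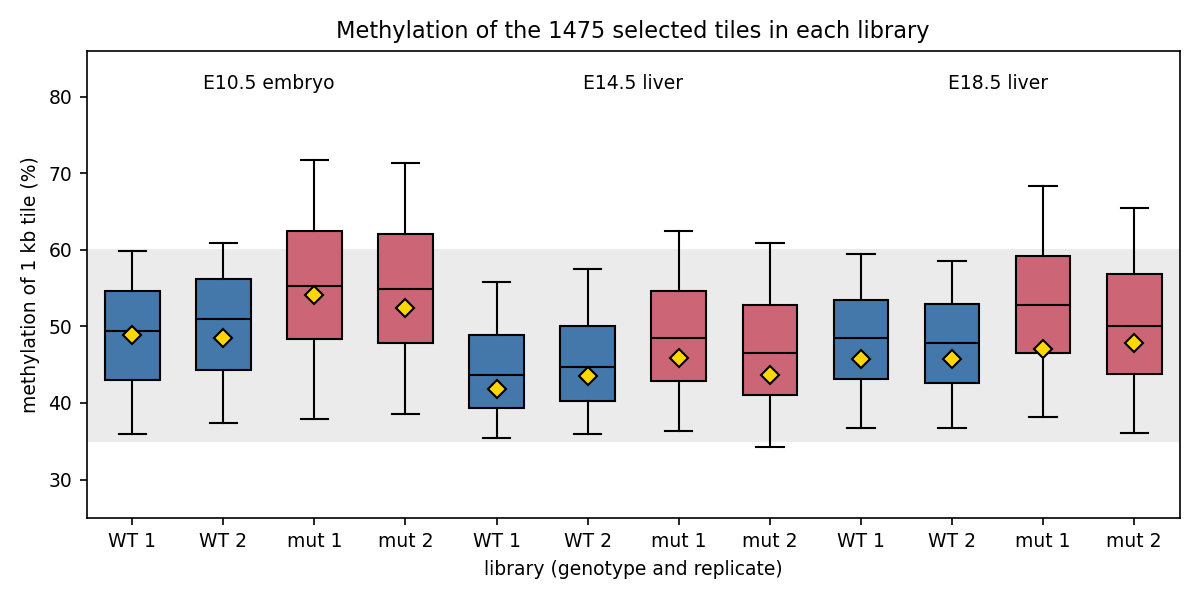
Methylation (%) of the 1475 tiles in each of the 12 libraries; boxes span the quartiles with the median as a line, whiskers the 5th to 95th percentiles, blue is wild type, red is mutant, the grey band is the 35% to 60% range that chose the tiles on wild-type means, and diamonds are the medians of the 57 tiles at germline DMR genes. In each tissue the mutant medians lie above the wild-type medians.

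The members nearest to the lower limit, chr12:113568001-113569000 and chr15:12126001-12127000, had their lowest wild-type tissue mean at 35.008% and 35.022%. The nearest tiles outside it, chr10:80804001-80805000 and chr7:28994001-28995000, stood at 34.986% and 34.983%. At the upper limit the nearest members, chr2:165175001-165176000 and chr1:52654001-52655000, had their highest tissue mean at 59.98% and 59.976%, and the nearest tiles outside, chr14:73269001-73270000 and chr8:94491001-94492000, had 60.008% and 60.011%.

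Tiles at genes with a germline DMR were often members. Of 38 genes listed at germline DMRs, 34 had a tile that met the coverage rule in the gene or within 5 kb of it, and 28 of them had a member. Of 185 such tiles 57 were members (30.8%), against 2.18% of all tiles, and these 57 were 3.86% of the members. The name imprinted members, used for these 57, rests on distance to a listed gene. Such a tile need not lie in the germline DMR itself. The Gnas locus, which encodes the stimulatory G protein alpha subunit and several imprinted transcripts, held 12, of which 10 also lay at its antisense transcript Nespas. Mest, a maternally methylated gene for a hydrolase-like protein, held 5, while Peg3, a zinc finger gene, and H19, a long non-coding RNA that shares its control region with Igf2, held 4 each. Nnat, Peg10, Meg3 and Slc38a4 held 3 each, and Plagl1, Airn, Kcnq1, Impact and Trappc9 held 2 each. Grb10, Snrpn, Inpp5f, Mcts2, Dlk1 and Zdbf2 held 1 each. No tile at Igf2, Zim1, Cdh15, Rasgrf1, Gpr1 or Zfp777 was a member, and Usp29 had no tile with enough coverage. Snurf, Kcnq1ot1 and Peg13 were not in the annotation used. Of 29 tiles at genes with a DMR acquired after fertilization, 2 were members, both at Cdkn1c.

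The CpGs within these imprinted tiles were evenly methylated. A CpG was called intermediate at 25% to 75% with the 6 mutant libraries pooled, and a tile was called uniform where at least 80% of its CpGs were intermediate and mixed where under 50% were. Of the 57 members at germline DMR genes 55 were uniform and none was mixed. Of the 1418 others 405 (28.6%) were uniform, 591 lay between and 422 (29.8%) were mixed. The standard deviation between the CpGs of a tile had a median of 4.94 percentage points (quartiles 3.74 and 8.96) at the imprinted members and 21.9 points (16.4 and 29.5) at the others. Read counting alone gives a median of 3.75 and 3.76 points in these sets, if the CpGs of a tile are taken as independent. Neighbouring CpGs share reads, so this is a yardstick only. At the Kcnq1 tile the observed value was below it (2.60 against 3.29 points). The observed value was within 1.5 times its own counting value at 33 of the 57 imprinted members and at 1 of the other 1418.

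**Figure D2:**
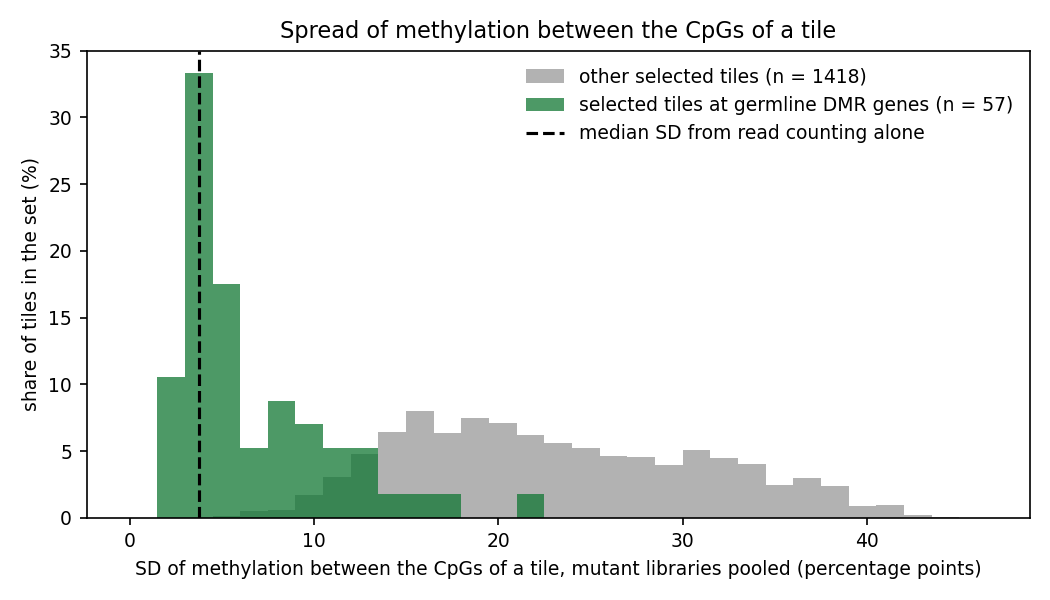
Share of tiles (%) by the standard deviation of methylation between the CpGs of a tile, in percentage points, over the 6 mutant libraries pooled, for the 57 members at germline DMR genes (green) and the 1418 other members (grey). The dashed line is the median standard deviation that read counting alone would give with CpGs taken as independent. The median of the green tiles is 4.94 against 21.9 for the grey tiles.

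At Snrpn, which encodes a small nuclear ribonucleoprotein and marks the Prader-Willi imprinting centre, the tile chr7:67149001-67150000 covers part of an exon and intron next to a start site and had 36 covered CpGs at 17.2 to 43.2 reads per CpG. Its methylation was 43.3% and 41.8% in wild-type and 50.7% and 39.7% in mutant E10.5 embryos, 35.5% and 38.2% against 44.8% and 39.2% in E14.5 liver, and 41.9% and 32.9% against 53.8% and 48.7% in E18.5 liver. The genotypes overlapped at E10.5 and stood apart in the livers, but no difference passed the test (edgeR quasi-likelihood, adjusted p = 0.82, 0.41 and 0.12 in order of stage). With the wild-type libraries pooled its 36 CpGs ran from 30.2% to 44.8%, and with the mutant libraries pooled from 39.2% to 53.2%.

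At Kcnq1, a potassium channel gene whose intron holds the start of an imprinted antisense transcript, the intronic tile chr7:150481001-150482000 had 69 covered CpGs. It measured 49.8% and 53.3% in wild-type and 50.1% and 51.0% in mutant embryos, 40.1% and 37.7% against 42.7% and 37.8% in E14.5 liver, and 44.0% and 37.8% against 38.7% and 42.0% in E18.5 liver. The genotypes overlapped in every tissue, and all 69 CpGs lay between 33.5% and 50.4% in the pooled wild-type libraries and between 35.04% and 48.8% in the pooled mutant libraries.

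The Peg3 tile chr7:6682001-6683000 (50 covered CpGs, over an exon and intron) measured 51.3% and 56.1% in wild-type and 52.0% and 54.3% in mutant embryos, 31.8% and 39.97% against 41.7% and 37.3% in E14.5 liver, and 35.9% and 41.0% against 42.5% and 41.7% in E18.5 liver. The genotypes overlapped in the embryos and at E14.5, and at E18.5 both mutant libraries lay above both wild-type libraries by less than 1 point at the nearest. The H19 tile chr7:149766001-149767000 (36 covered CpGs, intergenic, within 5 kb of the gene) measured 52.6% and 45.5% against 56.6% and 49.7%, then 41.9% and 42.7% against 43.9% and 39.8%, then 42.1% and 39.0% against 46.6% and 40.6%, and its genotypes overlapped in each tissue. At the 57 imprinted members the wild-type tile means ran from 40.7% to 59.8% at E10.5, from 35.8% to 55.6% at E14.5 and from 37.0% to 58.1% at E18.5, and the mutant tile means from 44.8% to 72.3%, 34.5% to 60.9% and 34.1% to 70.3%.

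**Figure D3:**
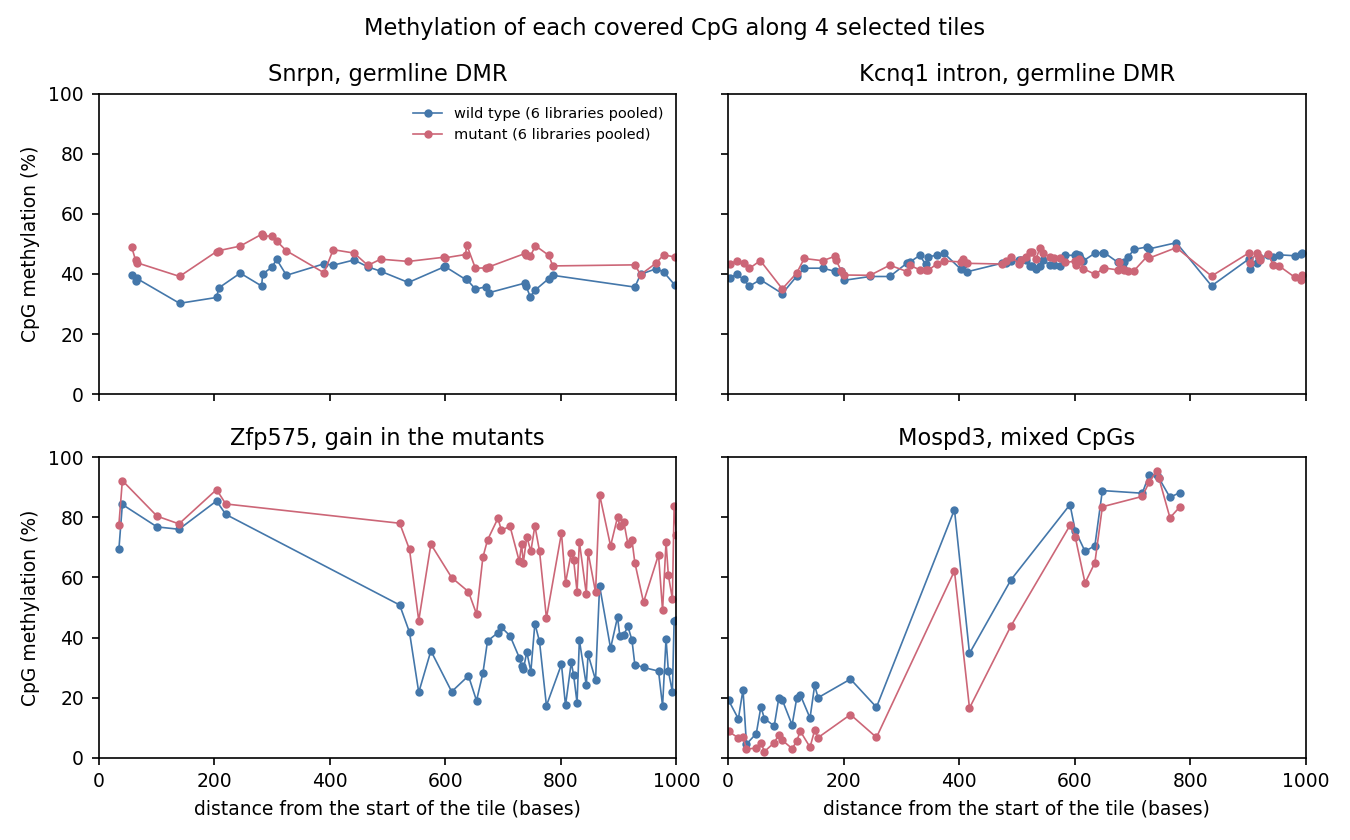
Methylation (%) of every covered CpG against its distance in bases from the start of the tile, for 4 members, with the 6 wild-type libraries pooled in blue and the 6 mutant libraries pooled in red. All 36 CpGs at Snrpn and all 69 at Kcnq1 lie between 25% and 75%. At Zfp575 the lowest value of any CpG is 17.2% in wild type and 45.6% in mutants, and at Mospd3 CpGs run from 4.55% to 94.1% in wild type.

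Intermediate methylation extended over neighbouring tiles at imprinted genes. Of the members 1360 had no adjacent member and 42 runs were pairs, and 9 of those pairs lay at germline DMR genes. All 8 runs of 3 or more adjacent members lay at such genes. The longest was 7 tiles at chr2:174120001-174127000 (Gnas and Nespas), followed by 4 tiles each at chr2:174109001-174113000 (Gnas and Nespas), chr6:30685001-30689000 (Mest) and chr7:6680001-6684000 (Peg3), and by 3 tiles each at Meg3, Slc38a4, Nnat and Peg10. Among imprinted members with both neighbouring tiles measured, 34 of 49 had both neighbours at 35% to 60%, against 55 of 1073 for the other members.

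The clustered protocadherins, cell adhesion genes of which single neurons use different sets, were a further group. Of 129 tiles at these 25 genes 31 were members (24.0%). Their medians were 52.7% and 52.3% in wild-type and 54.1% and 53.5% in mutant embryos, 40.7% and 41.6% against 40.9% and 41.2% in E14.5 liver, and 48.7% and 48.0% against 50.1% and 50.4% in E18.5 liver. None of the 31 was called in any tissue, where 9.15%, 3.32% and 4.07% of all members and 0.969%, 0.477% and 0.589% of all tiles were called higher in order of stage, so that few or no calls fall to 31 tiles at those shares. The difference between genotypes ran from -5.56 to 8.73 points at E10.5, -5.84 to 7.07 at E14.5 and -5.66 to 7.75 at E18.5. Their CpGs were less even than at imprinted genes, with 18 of 31 uniform and a median standard deviation of 17.4 points. Zinc finger genes of the Zfp series held 16 members of 1003 tiles (1.60%), the germline genes 2 of 50 (Dazl and Tdrd1), olfactory receptors 2 of 95, vomeronasal receptors none of 34 and the Hox genes, which pattern the body axis, none of 165.

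Members outside the imprinted list held a start site less often than tiles at large. A protein-coding start site fell in 153 of the 1418 (10.8%), in 18 of the 57 imprinted members (31.6%) and in 24.8% of all tiles. Protein-coding exons touched 36.1% of the 1418 and 54.2% of all tiles. Uniform members outside the list were a median 16796 bases from the nearest protein-coding start site and mixed members 4149 bases, against 4830 bases over all tiles. Of the 331 mixed members with both neighbours measured, 116 had 1 neighbour under 20% and the other above 60%, against 17 of 281 uniform members.

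The mixed kind is shown by chr5:138038001-138039000, a tile over exons and introns of Mospd3 (32 covered CpGs). In the pooled wild-type libraries 17 of its CpGs were under 25%, 10 were above 75% and 5 lay between. Its level was 47.6% and 43.9% in wild-type and 28.1% and 38.6% in mutant embryos, 47.8% and 47.4% against 41.7% and 36.2% in E14.5 liver, and 50.1% and 47.1% against 31.5% and 31.0% in E18.5 liver. Both mutant libraries lay below both wild-type libraries in every tissue, and the difference of -17.4 points at E18.5 passed the test (adjusted p = 0.012). This was the only loss called among members at E18.5, and it no longer passed without wild-type replicate 1 (adjusted p = 0.386), wild-type replicate 2 (0.165) or mutant replicate 1 (0.064).

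The mean methylation of members was higher in the mutants than in wild type, by more points than over all tiles. Their mean rose from 49.4% ± 1.03 (SD, n = 2) to 55.0% ± 0.164 (SD, n = 2) at E10.5, from 44.9% ± 0.648 (SD, n = 2) to 47.9% ± 1.28 (SD, n = 2) at E14.5 and from 48.1% ± 0.299 (SD, n = 2) to 51.6% ± 1.84 (SD, n = 2) at E18.5, where n counts libraries. The median difference of a member was 4.76, 2.32 and 3.07 points in order of stage, against 0.53, 0.69 and 0.62 over all tiles. At E18.5 it was 1.71 points for members and 0.06 for all tiles without mutant replicate 1 and 4.45 and 1.47 without mutant replicate 2, and at E14.5 the value over all tiles ran from 0.24 without wild-type replicate 1 to 1.19 without wild-type replicate 2. In order of stage, 1171, 1040 and 1044 of the 1475 members (79.4%, 70.5% and 70.8%) had the higher mean in the mutants, against 70.4%, 71.0% and 68.3% of all tiles. The members thus differed from tiles at large in the size of the difference more than in its direction, which in the livers was shared by all tiles at a like rate. The choice itself bears on that size, since a tile near either end of the scale can move less. Of all tiles, 26919 had a mutant mean under 35% at E10.5 and 37686 one over 60%. Tiles that were in the wild-type band in the tissue tested but were not members are the nearer comparison. Their calls are given next, and their median differences were not computed.

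A tile was called where edgeR's quasi-likelihood test on methylated and unmethylated read counts, fitted over all 67515 tiles, gave an adjusted p under 0.05 and the group means differed by more than 15 points. At E10.5 135 members were called higher in the mutants (9.15%) and none lower. Over all tiles 0.969% were called higher and 0.00296% lower, and of the 1883 tiles inside the wild-type band at E10.5 that were not members 9.4% were called higher. At E14.5 49 members (3.32%) were called higher and 2 lower, against 0.477% and 0.0133% of all tiles and 2.37% higher of the 4350 non-member tiles in the band. At E18.5 60 members (4.07%) were called higher and 1 lower, against 0.589% and 0.00741% of all tiles and 3.99% higher of the 3158 non-member tiles in the band. The members' share was thus well above that of all tiles and close to that of other tiles of the same wild-type level.

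These counts rest on few libraries. Leaving 1 out leaves a single library in its group, so the spread then comes from the other group alone. The median difference of members at E10.5 ran from 4.65 to 5.40 points with 1 library left out. At E18.5 it was 3.26 and 2.87 points without wild-type replicate 1 or 2, and 1.71 and 4.45 without mutant replicate 1 or 2. Without wild-type replicate 1 the count at E10.5 fell from 135 to 29, and over all tiles from 656 to 185. At E18.5 the 61 calls in either direction fell to 26 without mutant replicate 1, the library of highest overall methylation, to 21 without wild-type replicate 1 and to 17 without wild-type replicate 2. Over all tiles the 403 calls fell to 217, 203 and 156 under the same settings. limma on the percent values called none of all 67515 tiles in any tissue, members included. At an unadjusted p under 0.05 limma had 514, 437 and 391 members, and 9857, 9444 and 7469 of all tiles. By edgeR these counts were 511, 416 and 302 members, and 10131, 10565 and 6822 of all tiles.

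**Figure D4:**
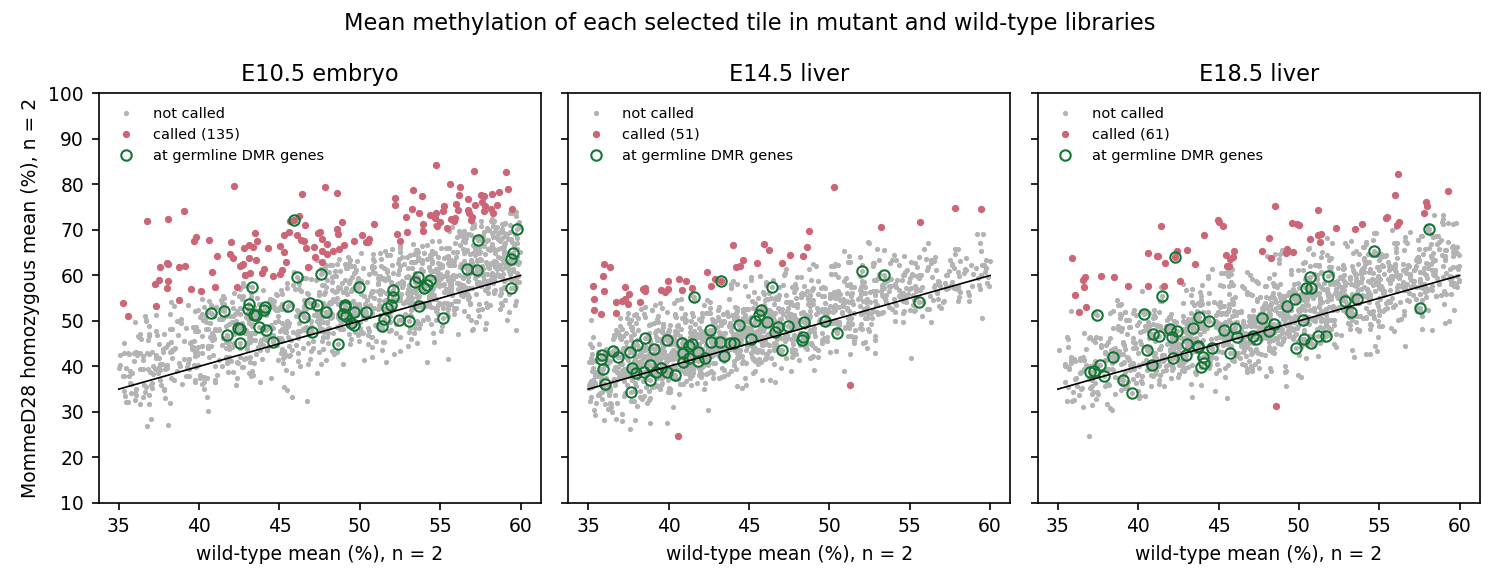
Mean methylation (%) of each of the 1475 tiles in the mutant libraries (vertical axis, n = 2) against the wild-type libraries (horizontal axis, n = 2) in each tissue, with called tiles in red (135, 51 and 61), tiles at germline DMR genes circled in green and a line where the genotypes are equal. Nearly all red points lie above the line. In order of stage, 48, 44 and 36 of the 57 green circles lie above it (84.2%, 77.2% and 63.2%), against 70.4%, 71.0% and 68.3% of all tiles.

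In each tissue 1 of the 57 members at germline DMR genes was called higher (1.75%), against 0.969%, 0.477% and 0.589% of all tiles in order of stage. The mutant mean was the higher at 48, 44 and 36 of these 57 (84.2%, 77.2% and 63.2%), against 70.4%, 71.0% and 68.3% of all tiles. Their median differences were 4.41, 1.81 and 1.61 points in order of stage. The E14.5 value rests on single livers, at 0.28 without mutant replicate 1, 1.09 without wild-type replicate 1, 3.85 without wild-type replicate 2 and 4.05 without mutant replicate 2. The E18.5 value was 2.60 points without wild-type replicate 1 and 2.44 without mutant replicate 2. Of the other 1418 members 134, 48 and 59 were called higher (9.45%, 3.39% and 4.16%). These counts were not tested against each other. The uniform, between and mixed classes were not compared for their gains, since they were read from the mutant libraries and a change in the mutants can move a tile into or out of a class.

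The member that rose most at E10.5 was the tile chr12:104554001-104555000 near Asb2 (22 covered CpGs, its sequence shown above). It lies outside any gene of the annotation used, which may lack genes. It measured 35.8% and 48.6% in wild-type and 81.2% and 78.0% in mutant embryos, 35.1% and 39.5% against 55.6% and 59.1% in E14.5 liver, and 44.6% and 43.6% against 73.3% and 64.4% in E18.5 liver. The genotypes stood apart in every tissue, by 37.4, 20.1 and 24.8 points, and all 3 differences were called (adjusted p = 9.1e-06, 2.2e-06 and 0.00031).

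The tile chr7:25370001-25371000, over an exon of the zinc finger gene Zfp575 (51 covered CpGs), was among the largest gains at E10.5 and E14.5. It measured 34.4% and 43.6% in wild-type and 76.1% and 72.4% in mutant embryos, 38.5% and 34.2% against 63.0% and 60.9% in E14.5 liver, and 51.8% and 45.2% against 79.2% and 71.4% in E18.5 liver. Here too the libraries separated by genotype in every tissue, with differences of 35.2, 25.6 and 26.8 points (adjusted p = 2.7e-05, 7.6e-09 and 5.9e-05). Of its 51 CpGs 9 were under 25% in the pooled wild-type libraries and none was in the pooled mutant libraries. The third tile of this rank at E10.5 was chr6:121378001-121379000 over an exon of Iqsec3, a guanine nucleotide exchange factor of synapses, with differences of 35.3, 17.1 and 18.1 points, of which the call at E14.5 was lost without mutant replicate 2 (adjusted p = 0.122) and that at E18.5 without any 1 of its 4 libraries (adjusted p = 0.061 to 0.478).

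In E14.5 liver the largest gain was at the Apoc1 tile described with its mRNA below (29.2 points), followed by chr9:66653001-66654000 at the start of the predicted gene Gm6435 (28 covered CpGs). The latter measured 59.0% and 48.7% in wild-type and 80.8% and 59.5% in mutant embryos, 39.0% and 32.9% against 60.2% and 64.7% in E14.5 liver, and 30.7% and 41.1% against 73.5% and 54.2% in E18.5 liver. It rose by 26.5 points at E14.5 (adjusted p = 8.6e-07) and 28.0 points at E18.5 (adjusted p = 0.0016), the latter lost without wild-type replicate 1 (0.141) or mutant replicate 1 (0.143). The 16.3 points at E10.5 did not pass (adjusted p = 0.108), but passed with the replicate number as a block (0.0018) and, at 27.0 points, without mutant replicate 2 (6.9e-06).

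At E18.5 the largest gain was at chr2:169787001-169788000, over an exon of AY702102 within Tshz2 (23 covered CpGs), with 42.9% and 39.9% in wild-type and 68.3% and 73.4% in mutant liver, a rise of 29.4 points (adjusted p = 3.4e-05). The same tile rose by 20.4 points at E10.5 (adjusted p = 0.016), a call lost without wild-type replicate 1 (0.418), and by 12.98 points at E14.5, under the 15 points asked. The tile chr2:151796001-151797000 in Fam110a (47 covered CpGs) measured 47.9% and 42.1% against 77.3% and 67.03% at E18.5, a rise of 27.2 points (adjusted p = 9.1e-05). It was also called at E14.5 (36.2% and 40.6% against 57.6% and 56.4%, adjusted p = 1.5e-05) and at E10.5 (48.0% and 47.9% against 70.7% and 63.0%, adjusted p = 0.009), the last lost without wild-type replicate 1 (0.115), wild-type replicate 2 (0.051) or mutant replicate 1 (0.077).

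The 2 losses called at E14.5 each lost the call when 1 library was left out. At chr6:145136001-145137000 in Casc1 the wild-type livers had 40.7% and 40.5% and the mutants 17.7% and 31.6%, a difference of -16.0 points (adjusted p = 0.00015, and 0.260 without mutant replicate 1). At the intergenic tile chr2:34526001-34527000 they had 57.2% and 45.3% against 41.0% and 30.7%, a difference of -15.5 points (adjusted p = 0.001, and 0.165 without wild-type replicate 1 or 0.191 without mutant replicate 2). In the other tissues neither tile was called.

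Of the 57 imprinted members 3 were called, a different 1 in each tissue. That is 1.75% per tissue, against 0.969%, 0.477% and 0.589% of all tiles called higher in order of stage. The tile chr12:110698001-110699000 over the start of Dlk1, which encodes a Notch ligand-like growth regulator, measured 35.8% and 56.0% in wild-type and 72.5% and 72.0% in mutant embryos, 39.0% and 44.2% against 51.0% and 59.4% in E14.5 liver, and 55.9% and 53.5% against 64.9% and 65.9% in E18.5 liver. It rose by 26.4 points at E10.5 (adjusted p = 0.0022), a call lost without wild-type replicate 1 (0.121). It was also 1 of the 2 imprinted members that were not uniform, the other being at Zdbf2. That class was read from the mutant libraries, so a rise in the mutants can itself move a tile out of it. At the Gnas tile chr2:174126001-174127000, the last of the 7-tile run, the E14.5 livers had 40.8% and 45.7% in wild type and 56.5% and 61.0% in mutants, a rise of 15.5 points (adjusted p = 0.00034) that came under 15 points without wild-type replicate 1, without mutant replicate 2 or with at least 10 reads per CpG. At the Gnas tile chr2:174152001-174153000 the E18.5 livers had 48.1% and 36.5% against 65.6% and 62.6%, a rise of 21.8 points (adjusted p = 0.0024) whose call was lost without wild-type replicate 2 (0.498) or mutant replicate 1 (0.090).

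Of the 159 members called higher in any tissue 23 were called in all 3. The E10.5 and E14.5 lists shared 38 tiles, 28.1% of the first and 77.6% of the second, the E10.5 and E18.5 lists shared 40, 29.6% and 66.7%, and the livers shared 30, 61.2% of the E14.5 list and 50% of the E18.5 list. Over all tiles the same shares were 28.6% and 58.1%, 33.9% and 55.8%, and 62.1% and 50.3%, with 143 of 908 called in all 3. Whether the genotype difference changed between tissues was tested directly as an interaction. No member was called between E10.5 embryo and E14.5 liver (background 0.00592% of tiles). At an unadjusted p under 0.05 there were 135 of 1475 members by edgeR and 147 by limma, and 3742 and 3767 of all 67515 tiles. None was called between E14.5 and E18.5 liver (background 0%), with 33 and 62 members at that level, and 2379 and 3406 of all tiles.

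The level across tissues was compared in the mutants, whose libraries did not set the band. Their levels are not independent of it, as 57.6% of members but 1.86% of all tiles had mutant means in the band in all 3 tissues. The comparison is therefore no separate test of a stable level. Between mutant E14.5 liver and mutant E10.5 embryo 272 members were called lower (18.4%) and 16 higher (1.08%), against 20.2% and 1.49% of all tiles, and the median difference was -7.73 points for members, -9.66 for the imprinted members and -6.50 for all tiles. The members' share lay near the background, which is of unlike level, with 26919 of all 67515 tiles at a mutant mean under 35% at E10.5. A comparison with tiles of a like level was not made. Among imprinted members 7 of 57 were called lower and none higher, the Peg3 tile falling by 13.7 points without reaching 15. Between mutant E18.5 and E14.5 liver 22 members were called higher (1.49%) and none lower, against 0.595% and 0.0474% of all tiles. Without E14.5 mutant replicate 2 that count was 1, without E14.5 mutant replicate 1 it was 3, and without E18.5 mutant replicate 2 it was 55, where the 434 calls over all tiles became 92, 139 and 870. The embryos were male, the E14.5 livers of both sexes and the E18.5 livers female. With E14.5 mutant replicate 1 alone, so that males were compared, 233 members were called lower and 16 higher against E10.5, and 12622 and 1052 of all 67515 tiles. The lone library is assumed there to vary like the embryos. Stage and tissue cannot be told apart between embryo and liver.

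The RNA of E14.5 liver was read at the genes that start in a member or within 1 kb of it. There were 468 such genes, at 445 members, and 272 had enough reads to be tested among 14183 genes. In the mutants 2 of them rose (0.735%) and 4 fell (1.47%), against 0.698% and 0.691% of all genes tested (edgeR quasi-likelihood, adjusted p under 0.05). The libraries held 12928313 to 14621004 counted reads, and levels are given in CPM, the reads of a gene scaled to the size of its library, a scale that does not allow for gene length. The replicate numbers paired these libraries, and with the number as a block 8 genes at members rose (2.94%) and 5 fell (1.84%), with 263 higher and 197 lower of all genes. With no filter on low counts 12 rose and 5 fell of 410 tested, and 317 and 215 of all 21942 genes. The balance at members turned towards higher under both settings, as it did over all genes.

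Hpd, which encodes 4-hydroxyphenylpyruvate dioxygenase of tyrosine breakdown, had 48.0, 26.0 and 34.5 CPM in wild-type and 0.389, 0.289 and 0.489 CPM in mutant livers. All mutants lay far below all wild types, by 90.5-fold (log2 -6.50 ± 0.319 SE, adjusted p = 7.5e-07). The member at its start, chr5:123622001-123623000 (20 covered CpGs), measured 46.9% and 46.2% in wild-type and 43.7% and 37.5% in mutant livers. Both mutants lay below both wild types here too, a difference of -5.94 points in the means that did not pass (adjusted p = 0.36).

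Apoc1, an apolipoprotein of lipid transport made by the liver, had 192, 144 and 154 CPM in wild-type and 44.4, 52.8 and 41.3 CPM in mutant livers. It fell by 1.83 on the log2 scale (SE 0.109, adjusted p = 3.7e-06), a 3.55-fold lower level with no overlap. The tile chr7:20277001-20278000 over its start, whose sequence is given above, had 25 covered CpGs and measured 50.2% and 50.4% in wild-type and 77.6% and 81.4% in mutant livers of this stage (adjusted p = 8.1e-12). It measured 47.5% and 60.2% against 77.6% and 77.4% at E10.5 and 62.1% and 50.3% against 82.2% and 82.2% at E18.5. The genotypes stood apart in all 3 tissues, and the call at E10.5 was lost without wild-type replicate 1 (adjusted p = 0.093).

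Fscn1, an actin-bundling protein, had 80.01, 93.1 and 82.9 CPM in wild-type and 64.1, 67.1 and 65.4 CPM in mutant livers, a fall of 0.39 on the log2 scale (SE 0.069, adjusted p = 0.018) that was lost without wild-type replicate 3 (0.054), mutant replicate 1 (0.096) or mutant replicate 3 (0.084). Its intronic tile chr5:143725001-143726000, 571 bases from a start site, rose from 38.5% and 36.5% to 57.7% and 54.0% (18.4 points, adjusted p = 0.00014). Apoc1 and Fscn1 were the only genes called among the 6 tested at the 49 members that were called higher at E14.5. Of all genes tested 1.39% were called, 0.691% lower. A log2 fold change below 0 was seen in 3 of those 6.

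The other 3 genes had no tile change that was called. Psma8, a proteasome subunit used in the testis, had 2.98, 3.29 and 3.70 CPM in wild-type and 0.701, 1.08 and 1.05 CPM in mutant livers (log2 -1.80 ± 0.246 SE, adjusted p = 0.0044), and its tile 42.1% and 43.2% against 49.3% and 45.6%. Eps8l2, a regulator of actin, rose from 11.8, 13.04 and 12.6 CPM to 21.3, 24.0 and 17.6 CPM (log2 0.74 ± 0.122 SE, adjusted p = 0.013, and 0.066 without mutant replicate 1), with its tile at 49.2% and 46.1% against 48.0% and 50.4%. Cxcl10, an interferon-induced chemokine, went from 4.97, 6.26 and 4.60 CPM to 7.71, 13.7 and 9.71 CPM (log2 0.97 ± 0.205 SE, adjusted p = 0.042), a call lost when any 1 of 4 libraries was left out (adjusted p = 0.092 to 0.139). Its tile had 39.2% and 39.2% against 45.3% and 47.6%, both mutants above both wild types, by 7.22 points that did not pass (adjusted p = 0.18).

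**Figure D5:**
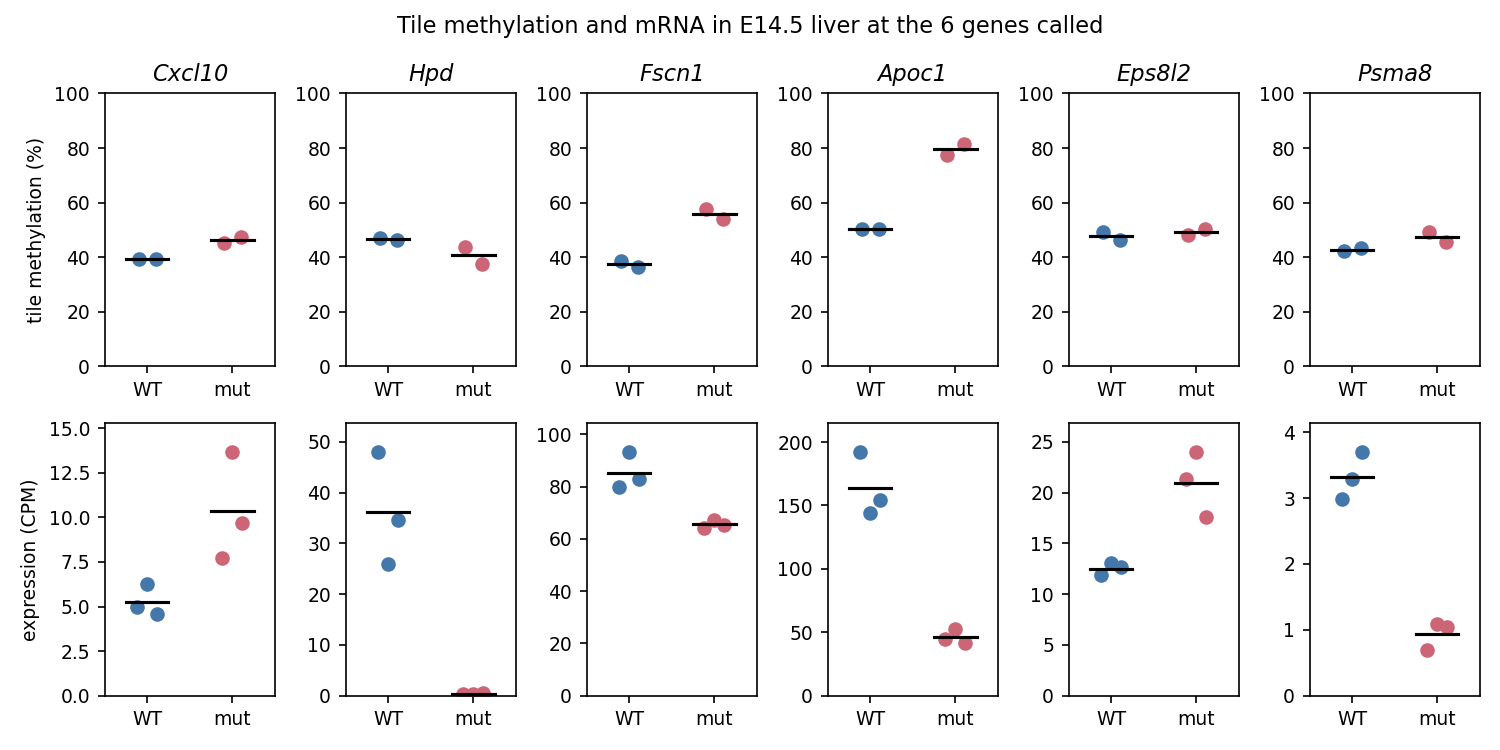
Top row, methylation (%) of the tile at each of the 6 genes called, in 2 wild-type (blue) and 2 mutant (red) E14.5 livers; bottom row, their expression (CPM, a separate scale for each gene) in 3 livers per genotype; lines are means. Tile methylation separates the genotypes widely at Apoc1 and Fscn1, whereas Hpd differs 90.5-fold in mRNA with tile levels of 46.9% and 46.2% against 43.7% and 37.5%.

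Imprinted genes were read in the same livers. Of 30 germline DMR genes tested, 1 was called. H19 had 10862, 11734 and 11189 CPM in wild-type and 11371, 12290 and 11519 CPM in mutant livers (log2 0.06 ± 0.061 SE, adjusted p = 0.73), and Dlk1 had 2162, 2274 and 2183 against 2365, 2504 and 2293 CPM (log2 0.11, adjusted p = 0.44). Snrpn had 12.8, 15.6 and 15.5 against 16.4, 20.2 and 15.9 CPM (log2 0.25, adjusted p = 0.37). At Dlk1 and at Snrpn all mutants lay above all wild types, narrowly at the nearest. Grb10, a growth factor receptor adaptor, had 870, 961 and 994 against 1120, 1126 and 1067 CPM (log2 0.23, adjusted p = 0.14), with no overlap between genotypes. Peg3 had 369, 395 and 420 against 560, 473 and 482 CPM (log2 0.35 ± 0.080 SE), again with no overlap. It missed the threshold (adjusted p = 0.054) and passed it with the replicate block (0.017). Zim1, its neighbour, which had no member, rose from 19.4, 20.7 and 24.0 to 33.5, 30.5 and 28.8 CPM (log2 0.53 ± 0.097 SE, adjusted p = 0.023, and 0.057 to 0.116 without wild-type replicate 1, mutant replicate 1 or mutant replicate 2). Airn, Nnat, Impact and Inpp5f were also higher without overlap and Gnas was lower without overlap, none of them called. How often genes at large separate in this way was not counted. Counting ignored strand, so reads of Airn and Igf2r or of Nespas and Gnas cannot be told apart where the genes overlap. None of 11 tested genes with secondary DMRs was called, where 1.39% of all tested genes were.

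A list of factors of imprints and of DNA methylation, with Dnmt3a, Dnmt3b and Tet1 to Tet3 among them, had 18 genes tested. Of these 1 was called, where 1.39% of all tested genes were. Dnmt3a, a DNA methyltransferase that sets new methylation, rose from 101, 108 and 115 to 136, 139 and 130.5 CPM (log2 0.32 ± 0.063 SE, adjusted p = 0.032), and lost that call without any 1 of 5 libraries (0.056 to 0.102). Zfp57 had 4.20, 3.23 and 4.05 against 5.69, 5.27 and 6.08 CPM (log2 0.57, adjusted p = 0.12). Trim28 and Dnmt1 had log2 differences of 0.00 and -0.02. Rlf mRNA had 70.1, 72.1 and 68.5 CPM in wild-type and 76.6, 79.9 and 67.3 CPM in mutant livers (adjusted p = 0.65), which does not check the genotype, as the allele is not a deletion. All 6 erythroid and all 6 hepatoblast markers were detected, as fetal liver requires. The 6 hepatoblast markers summed to 53156 to 63601 CPM in wild-type and 65531 to 76567 CPM in mutant livers, and the 3 megakaryocyte markers to 255 to 265 against 324 to 354 CPM. The 3 endothelial markers summed to 151 to 163 against 169 to 202 CPM. These sums did not overlap, whereas the erythroid, neutrophil, macrophage and mesenchymal sums did. Of the endothelial markers Pecam1, Stab2 and Lyve1 (log2 0.20, 0.41 and 0.18) only Lyve1 stood apart by genotype, and none was called. The hepatoblast sum was nearly all Alb and Afp (log2 0.27 and 0.18), whereas Apoa1, Ttr, Hnf4a and Krt8 had log2 differences of 0.06, 0.03, 0.13 and -0.04 with overlapping genotypes, and none of the 6 was called. Pf4 of the megakaryocyte markers rose (log2 0.40, adjusted p = 0.014), and Elane of the neutrophil markers fell (log2 -0.76, adjusted p = 0.049), both without overlap. The other neutrophil markers, Mpo and Prtn3, had log2 differences of 0.13 and -0.02 and were not called. The erythroid marker Klf1 was also lower without overlap, but was not called (log2 -0.21, adjusted p = 0.23). The part of these differences in the results for Hpd, Apoc1 and the other genes was not tested.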

How the data were processed

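Methylation was measured by whole genome bisulphite sequencing in 12 libraries, and mRNA in 6. Per the labels and the study's methods, the authors mapped reads with Bismark and Bowtie2 to mm9 carrying FVB substitutions, removed PCR duplicates, merged strands and deposited, for each CpG, the counts of converted and unconverted reads and a percent. RNA reads were mapped with TopHat, and the authors deposited HTSeq read counts per Ensembl gene, taken without regard to strand.

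Tile methylation is summed unconverted reads over summed reads. Tiles were tested with edgeR 4.0.16 (quasi-likelihood, 1 intercept per library, all tiles, Benjamini-Hochberg), with limma 3.58.1 on percent as an alternative. RNA was tested with edgeR (TMM, filterByExpr) and DESeq2 1.42.0 as an alternative. Scripts were tested on simulated data: with tiles moved by 20 points in a simulated comparison of E14.5 livers over 67515 tiles, 97.0% were called, and with 10 points 7.46%. With genes changed 2-fold over 14183 genes 86.6% were called. P-values measure only the spread between these samples, and litters are given for the E14.5 bisulphite libraries alone, as littermates. The study called regions by smoothing; fixed tiles were used here.

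Replicate numbers paired the RNA libraries (correlations of same-numbered deviations from the group means 0.155, 0.220 and 0.426), though no label gives a shared litter. Annotation was GENCODE M1 on the same build. All gene lists, and the members themselves, were chosen with earlier results of these data known.

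Named tiles are, by rule, the member with most covered CpGs at each germline DMR gene, the 3 largest called gains and losses per tissue without overlap of genotypes, the 3 longest runs (ties kept), the 2 tiles nearest each side of each limit, and the 2 members of highest relative depth. Named genes are those called at members, the 5 of highest CPM there, Rlf and the lists. The tiles of called genes were added after their values were seen, as were the 2 called Gnas tiles, the motif counts per CpG, the limit of 1.5 times the counting value, and the protocadherin levels. Percentages without an interval are limited by depth, since 6 reads per CpG was the minimum.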

Additional observations from a re-analysis of the deposited data

Results flagged for a closer look

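Of the tiles named, 3 had all mutant libraries above all wild-type libraries in 1 tissue and below them in another. With 2 libraries per genotype such separation is common. By stage, 24593, 24582 and 20968 of all 67515 tiles had both mutants above, and 5773, 5808 and 6124 had both below. How often tiles at large separate in opposite directions was not counted. At the Mcts2 tile in H13 the difference was 5.43 points at E10.5 and -4.75 points at E18.5. At the Meg3 tile over the start of that gene it was 3.22 points at E10.5 and -4.52 points at E18.5. At the Impact tile it was 5.57 points at E10.5, -1.81 points at E14.5 and 1.61 points at E18.5. No interaction test between E10.5 and E18.5 was run, so the first 2 were not tested, and none of these differences between genotypes passed in any tissue. The interaction tests that include E14.5 called no member.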

How the results depend on the processing

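The number of members was 851 with at least 10 reads per CpG, 4036 with at least 15 CpGs and 932 with a band of 40% to 60%, and other settings stayed within 1.5 times. For the calls between genotypes limma gave 0 in each tissue, both for members and over all tiles. At E14.5 adjusted p alone gave 182 and a limit of 10 points 159. Leaving out 1 library gave 29 to 146 at E10.5, 46 to 64 at E14.5 and 17 to 65 at E18.5. Between mutant tissues, E14.5 against E10.5 gave 854 by adjusted p alone and, of the 874 members that qualify, 180 at 10 reads per CpG, while E18.5 against E14.5 gave 72, 0 by limma and 1 to 55 without 1 library. Genes called at members were 17 with no filter on low counts (12 higher) and 13 with the replicate block (8 higher). With CpGs of 20% to 80% taken as intermediate, 744 members were uniform and 236 mixed. With the replicate block the tile counts were 139, 51 and 79 by stage, and the interaction of E10.5 and E14.5 gave 1, while the numbers did not pair the bisulphite libraries (correlations 0.0605, 0.00847 and -0.0168). Of the 16 genes and the tiles recomputed singly, the block changed the call of Peg3 and the Gm6435 tile. The cause of these changes was not tested. Over the tiles recomputed singly, limma lost all 27 called differences, and no called value there changed sign under any setting. DESeq2 also called Peg3 and Grb10. Coverage of 6 reads limits single CpGs, so values rest on whole tiles.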

Other observations

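Outside the imprinted list, 29 members had a standard deviation between CpGs under 10 points, and those named here were chosen after their values were seen. Of these, 3 lay near listed imprinted genes but beyond the 5 kb used. The tile chr1:63313001-63314000 in Gm11608, 5839 bases from Zdbf2, had a standard deviation of 4.97 points against 3.58 from counting, with 43.1% and 35.2% in wild-type and 48.5% and 48.3% in mutant embryos. The tile chr1:63311001-63312000, separated from it by 1 tile, had 54.3% and 49.5% against 52.9% and 46.8%. The intergenic tile chr12:110766001-110767000, between Dlk1 and Meg3 and 12211 bases from Meg3, held 5 TGCCGC motifs and had 52.8% and 41.1% against 45.9% and 51.9% in embryos, 37.2% and 41.2% against 37.8% and 42.4% in E14.5 liver, and 53.5% and 48.3% against 43.1% and 46.1% in E18.5 liver.

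Among the even members far from any listed gene, levels of the genotypes lay close at some tiles and apart at others. Evenness was read from the mutant libraries, so a change in the mutants can move a tile into or out of this set. The tiles below are therefore a description. The tile chr1:185441001-185442000, outside any annotated gene, had 55.2% and 53.7% in wild-type and 56.6% and 56.0% in mutant embryos, 39.4% and 42.0% against 47.5% and 38.6% in E14.5 liver, and 53.3% and 41.7% against 50.1% and 44.9% in E18.5 liver. By contrast chr16:36199001-36200000, also outside annotated genes, had 44.8% and 46.5% against 71.7% and 72.4%, then 44.0% and 48.5% against 65.8% and 65.2%, then 60.4% and 55.5% against 71.1% and 70.8%. The tile chr17:89191001-89192000 over the start of Lhcgr, the luteinizing hormone receptor, had 40% and 47.9% against 54.5% and 66.7%, then 37.3% and 45.6% against 57.1% and 57.3%, then 43.5% and 29.7% against 62.6% and 55.3%.

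A few members had unusual depth. The tile chr3:5860001-5861000 had 41.4 times the median depth of its libraries and chr17:71313001-71314000 had 14.0 times, and 11 members exceeded 2 times. In the first the 12 libraries ran from 33.5% to 55.2%. No member at a germline DMR gene exceeded 2 times.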
